A study of Mus musculus with 6 samples.

Results

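The killer lectin-like and natural cytotoxicity receptors were followed as 9 genes, Klrg1, Klrd1, Klrk1, Klrc1, Klrc2, Klrb1c, Klra7, Klre1 and Ncr1. They were taken by gene name from a count table of 54532 genes. By the study's methods, the libraries were made from RNA of mouse CD8T cells isolated from spleen with a kit. The cells had been stimulated on beads carrying anti-CD3 and anti-CD28, and kept in coculture with macrophages for 24 hr. The macrophages were thioglycolate-induced peritoneal cells that received 10 ng/mL IFN-γ during the 12 hr before the coculture. In the control group they received no DB2313, and for the DB2313 group they had been exposed to DB2313, which inhibits the transcription factor Spi1 and was used on macrophages at 14 nM. Each group had 3 libraries, and whether these came from separate cultures or animals is not given in the sources used here, so p-values measure the spread between these libraries, which may be technical. GEO's labels describe primary T cells and name dendritic cells, not macrophages, as the cells in the coculture. Age, sex and strain of the cell donors and a purification of the T cells after the coculture are not given in the sources used here.

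The libraries held between 16611975 and 18596217 counts, of which the 9 receptor genes took 0.00611% to 0.00704% in control libraries and 0.00961% to 0.00990% in DB2313 libraries. A count of 0 allows up to 3 counts in a library, or 0.183 CPM at most (CPM, the count per 1000000 counts after TMM scaling of the libraries), and every receptor gene had at least 23 counts in all 6 libraries. Of the 54532 genes, 14883 passed edgeR's filter on low counts, and all 9 receptor genes were among them. The labelled cell type was checked by its defining genes. Cd3e was at 135.9 ± 4.87 and 169.5 ± 15.3 CPM in the control and DB2313 groups. Cd8a was at 118.5 ± 3.91 and 171.5 ± 10.2 CPM, and Cd4 at 213.0 ± 2.51 and 294.0 ± 4.58 CPM (SD, n = 3 each). Genes of CD8T cells and the defining gene of CD4 T cells were thus both counted, and Cd4 was above Cd8a in both groups. Foxp3, of the CD4 T cell marker list, was at 113.0 ± 1.84 and 139.3 ± 1.22 CPM (SD, n = 3 each). These levels do not show a pure CD8T cell population. The macrophage marker Lyz2 stood above them, at 7702 ± 133 and 2084 ± 36.6 CPM (SD, n = 3 each). A list of 25 macrophage markers took 1.54% to 1.56% of the counts in control and 0.636% to 0.645% in DB2313 libraries. A list of 20 T cell markers took 0.305% to 0.309% and 0.491% to 0.494%, so the libraries did not hold T cell RNA alone.

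Natural killer (NK) cells, and some CD8T cells after activation, carry these receptors and use them to weigh activating against inhibitory ligands on other cells. Most are C-type lectin-like proteins encoded side by side in the NK gene complex of chromosome 6, while Ncr1 is an immunoglobulin-like receptor of another chromosome. Inhibitory members carry tyrosine motifs that recruit phosphatases, and activating members have short tails and signal through the adaptor proteins Tyrobp (DAP12), Hcst (DAP10), Fcer1g or Cd247.

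In the DB2313 group, 7 of the 9 receptor genes were higher than in the control group, at an adjusted p below 0.05 in edgeR's quasi-likelihood test. They were Klrd1, Klrc1, Klrc2, Klrb1c, Klra7, Klre1 and Ncr1, and their log2 fold changes lay between 0.70 and 0.92. Klrg1 and Klrk1 did not pass the threshold, and no receptor gene was lower. With scaling to T cell markers, described further on, 1 receptor gene was higher and 1 lower. Among all 14883 genes tested, 20.8% were higher and 24.6% lower at the same threshold, 45.4% in either direction. The higher genes were 45.8% of all called genes, against 63.4% with library size scaling, 58.2% with upper quartile scaling and 1.42% with scaling to T cell markers. The same 7 genes had every DB2313 library above every control library, which held for 25.6% of all genes tested, while 27.5% had every DB2313 library below. With an absolute log2 fold change above 1 asked for as well, no receptor gene was called, beside 1.37% of all genes higher and 5.30% lower. The median log2 fold change of the 9 genes was 0.79, against 0.019 over all genes tested. In bulk RNA a larger number of cells that express a gene and more of its RNA per cell cannot be told apart, which holds for each value that follows.

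**Figure D1:**
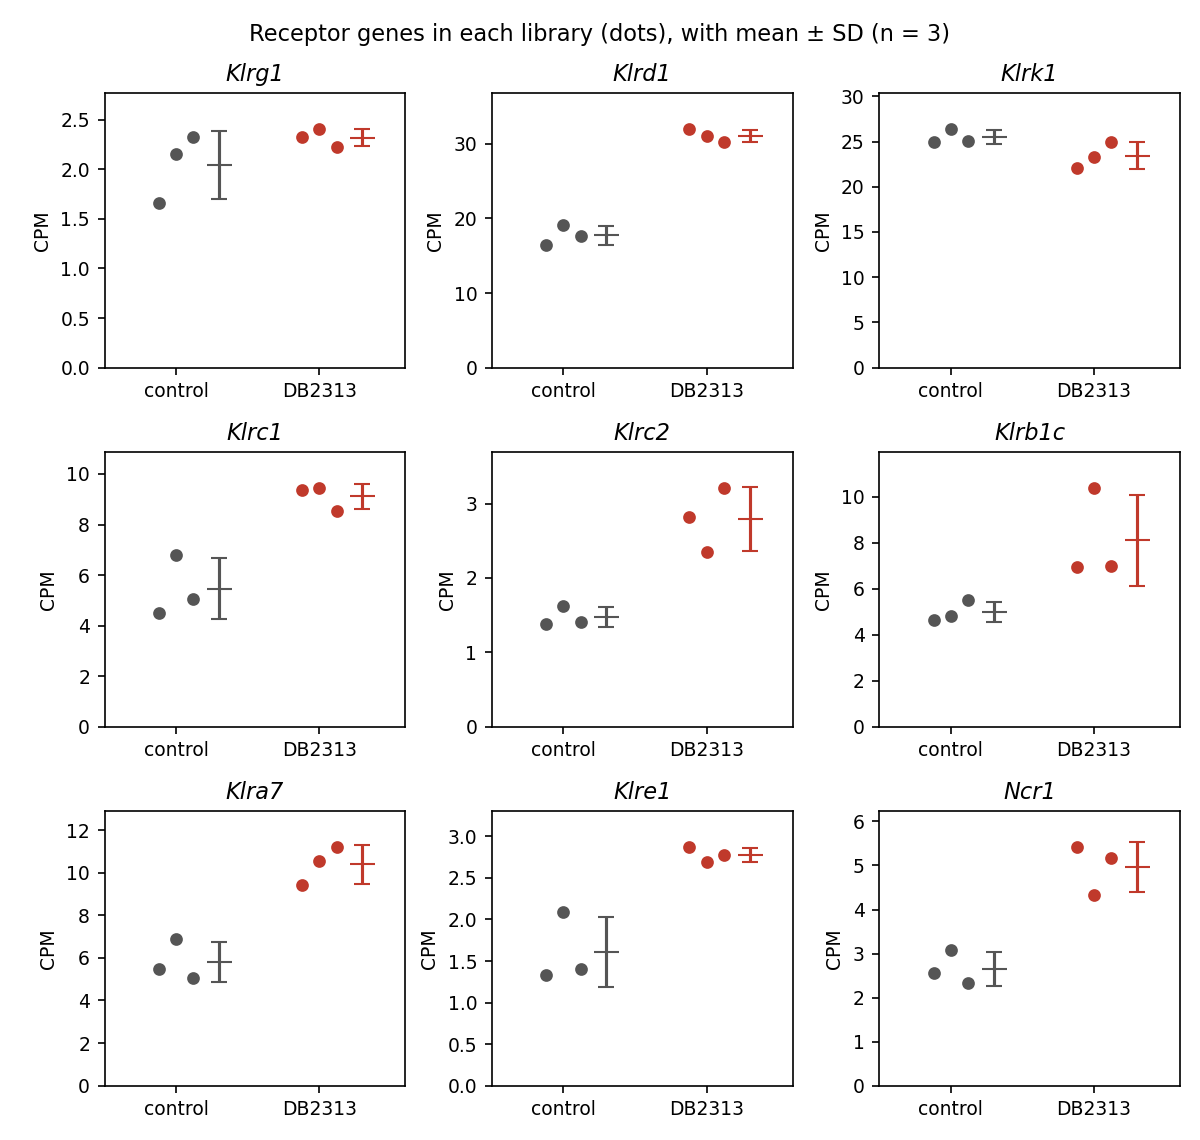
CPM (TMM-scaled, y axis, starting at 0) of each receptor gene in the 3 control libraries (grey) and the 3 DB2313 libraries (red), with the mean and SD beside the dots. The groups are apart in 7 panels, and they overlap for Klrg1 and Klrk1.

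Klrd1 (CD94) is the common chain that pairs with the NKG2 proteins Klrc1 and Klrc2, and the pairs bind the nonclassical MHC molecule Qa-1. Klrd1 (ENSMUSG00000030165, chromosome 6 of GRCm38 from 129591782 to 129598775, plus strand) had 297, 328 and 289 counts in the control libraries and 590, 529 and 557 counts in the DB2313 libraries. All 3 DB2313 libraries were high and the groups stood well apart. Its level was 17.7 ± 1.31 CPM in control and 31.1 ± 0.837 CPM in DB2313 libraries (SD, n = 3 each), a log2 fold change of 0.81 (standard error 0.081, adjusted p = 1.39e-08 in edgeR's quasi-likelihood test, after Benjamini-Hochberg adjustment over all genes tested). Of all genes tested, 97.1% had a lower log2 fold change.

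Klrc1 (NKG2A) is the inhibitory partner of Klrd1. Klrc1 (ENSMUSG00000030167, chromosome 6 from 129666015 to 129678973, minus strand) was counted 81, 117 and 83 times in control and 173, 161 and 157 times in DB2313 libraries. Control replicate 2 was the highest of its group and still lay below every DB2313 library. The level went from 5.46 ± 1.21 to 9.11 ± 0.502 CPM (SD, n = 3 each), a log2 fold change of 0.74 (standard error 0.15, adjusted p = 0.000367 in the same edgeR test).

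Klrc2 (NKG2C) is the activating partner, which signals through Tyrobp. Klrc2 (ENSMUSG00000052736, chromosome 6 from 129647496 to 129660689, minus strand) was counted 25, 28 and 23 times in control and 52, 40 and 59 times in DB2313 libraries. The groups did not overlap, although DB2313 replicate 2 stood nearest to the control libraries. Its log2 fold change came to 0.92 (standard error 0.27, adjusted p = 0.00653 in the same edgeR test), so both partner genes of Klrd1 rose, the inhibitory and the activating one. Klrc1 and Klrc2 are near copies in part: of the 2030 stretches of 50 bases in the annotated transcripts of Klrc1, 36.6% also occur in Klrc2, so the division of reads between them is uncertain. Counts summed over Klrc1, Klrc2 and Klrc3 gave a log2 fold change of 0.79 (standard error 0.13, adjusted p = 3.21e-05 in the same edgeR test).

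Klrk1 (NKG2D) is an activating receptor for stress-induced ligands of the Raet1, H60 and Ulbp1 families and signals through Hcst. Klrk1 (ENSMUSG00000030149, chromosome 6 from 129610323 to 129623864, minus strand) had 451, 453 and 411 counts in the control libraries and 408, 397 and 460 counts in the DB2313 libraries. The groups overlapped, with DB2313 replicate 3 within the range of the control libraries on the CPM scale. The level was 25.5 ± 0.756 CPM in control and 23.5 ± 1.46 CPM in DB2313 libraries (SD, n = 3 each). The log2 fold change of -0.12 (standard error 0.079, 95% confidence interval -0.28 to 0.044) did not pass the threshold (adjusted p = 0.23 in the same edgeR test). No stretch of 50 bases in the transcripts of Klrk1 or Klrd1 occurs in those of another gene.

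Among the tested Klr genes, Klrk1 lies between Klrd1 and Klrc2 on the chromosome. The ratio of Klrd1 to Klrk1 counts, which does not depend on how the libraries are scaled, was 0.659, 0.724 and 0.703 in the control libraries and 1.45, 1.33 and 1.21 in the DB2313 libraries. Klrk1 thus had more counts than Klrd1 in each control library, and fewer in each DB2313 library. The ratio was higher in 3 of 3 DB2313 libraries (two-sided exact permutation test, p = 0.1, which is the lowest possible with 3 against 3, and 0.114 after Benjamini-Hochberg adjustment over 8 comparisons). The ratio to Klrk1 was compared for the other 8 receptor genes, and 7 of them had every DB2313 library above every control library, the exception being Klrg1 (exact permutation test, p = 0.2). The same held for 35.0% of all genes tested. All 8 ratios share Klrk1 as denominator, and the 7 genes were already apart on the CPM scale, so the ratios add no separate support.

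Klra7 (Ly49G) is an inhibitory receptor for classical MHC class I molecules. Klra7 (ENSMUSG00000067599, chromosome 6 from 130218605 to 130233322, minus strand) was counted 99, 118 and 83 times in control and 174, 180 and 206 times in DB2313 libraries. Every DB2313 library was above every control library. Its log2 fold change came to 0.84 (standard error 0.14, adjusted p = 3.44e-05 in the same edgeR test). The Ly49 genes resemble each other, and 12.3% of the stretches of 50 bases in Klra7 transcripts also occur in the pseudogene Klra13-ps, which had 11 to 17 counts in the control libraries and 29 to 51 in the DB2313 libraries. Summed over all 11 protein-coding Klra rows the direction turned, to a log2 fold change of -0.54 (adjusted p = 8.58e-07 in the same edgeR test), because this sum holds Klra2, which took 61.8% to 62.2% of its counts in control and 19.5% to 24.04% in DB2313 libraries. Without Klra2 and Klra17, which share no stretch of 50 bases with another gene, the sum of the remaining 9 rows showed a log2 fold change of 0.62 (standard error 0.092), an alternative chosen after the data were seen.

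Klrb1c (NK1.1, the antigen that marks NK cells of the C57BL/6 strain) is an activating receptor that signals through Fcer1g. Klrb1c (ENSMUSG00000030325, chromosome 6 from 128778485 to 128789215, minus strand) was counted 84, 83 and 90 times in control and 128, 177 and 129 times in DB2313 libraries. DB2313 replicate 2 was far above the other DB2313 libraries, and all 3 were above the control group. The log2 fold change came to 0.70 (standard error 0.17, adjusted p = 0.00171 in the same edgeR test), and 0.48 without DB2313 replicate 2. The gene overlaps the annotated gene Gm44511 on the same strand over 8931 bases, and 12.4% of its stretches of 50 bases also occur there. Gm44511 had 0 counts in each library. How reads in the shared bases were assigned is not known here. The 0 therefore does not show that Gm44511 is silent, and the level of Klrb1c is uncertain.

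Klre1 is a chain that pairs with Klri1 or Klri2. Klre1 (ENSMUSG00000050241, chromosome 6 from 129577905 to 129585827, plus strand) was counted 24, 36 and 23 times in control and 53, 46 and 51 times in DB2313 libraries. The groups did not overlap, but the counts were low, as were those of Klrc2 and Klrg1. Its log2 fold change came to 0.79 (standard error 0.27, adjusted p = 0.0186 in the same edgeR test). The call was lost with DESeq2 (adjusted p = 0.0668) and when control replicate 1, control replicate 3 or DB2313 replicate 1 was left out (adjusted p between 0.0513 and 0.0906 in the same edgeR test), while the log2 fold change stayed between 0.66 and 1.02. Klri1 had 7 to 22 counts and Klri2 17 to 60 counts in a library, and neither passed the threshold, with log2 fold changes of 0.39 and 0.79.

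Ncr1 (NKp46) is a natural cytotoxicity receptor that marks NK cells and some other innate lymphoid cells. Ncr1 (ENSMUSG00000062524, chromosome 7 from 4337724 to 4345164, plus strand) was counted 46, 53 and 38 times in control and 100, 74 and 95 times in DB2313 libraries. All DB2313 libraries were higher than all control libraries. The level went from 2.65 ± 0.391 to 4.97 ± 0.564 CPM (SD, n = 3 each), a log2 fold change of 0.91 (standard error 0.20, adjusted p = 0.000654 in the same edgeR test). No stretch of 50 bases in its transcripts occurs in another gene.

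Klrg1 is an inhibitory receptor for cadherins and a common marker of short-lived effector CD8T cells. Klrg1 (ENSMUSG00000030114, chromosome 6 from 122270596 to 122282882, minus strand, outside the NK gene complex) was counted 30, 37 and 38 times in control and 43, 41 and 41 times in DB2313 libraries. The counts did not overlap, but on the CPM scale the groups did. The log2 fold change of 0.18 (standard error 0.26) did not pass the threshold (adjusted p = 0.591 in the same edgeR test), and its 95% confidence interval ran from -0.35 to 0.72. Of the 7 genes that rose, Klrb1c at 0.70 lay inside this interval and the others lay above it.

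Compared per length, as CPM per kilobase of the gene length in the table, Klrd1 had the highest level of the 9 genes, 13.8 ± 1.03 in control and 24.3 ± 0.653 in DB2313 libraries (SD, n = 3 each). In the control group Klra7 followed at 4.59 ± 0.743, then Klrk1 at 3.55 ± 0.105, Klrc1 at 2.75 ± 0.608, Ncr1 at 1.72 ± 0.254, Klrb1c at 1.69 ± 0.150, Klrg1 at 1.45 ± 0.242, Klre1 at 0.461 ± 0.121 and Klrc2 at 0.253 ± 0.0233 CPM per kilobase. Of the neighbours in this order, Ncr1 and Klrb1c overlapped in their libraries, and so did Klrb1c and Klrg1. The place of Klrb1c is uncertain because of its overlap with Gm44511. In the DB2313 group Klrc1, at 4.59 ± 0.253 CPM per kilobase, stood above Klrk1, at 3.26 ± 0.204, and the libraries of Klrk1, Ncr1 and Klrb1c overlapped. The level per kilobase of the inhibitory chain Klrc1 was thus far above that of the activating chain Klrc2 in both groups, with the division of their reads uncertain. Part of this gap comes from the gene lengths in the table, 1984 bases for Klrc1 and 5812 for Klrc2. Without division by length their means were 5.46 and 1.47 CPM in control and 9.11 and 2.79 CPM in DB2313 libraries.

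**Figure D2:**
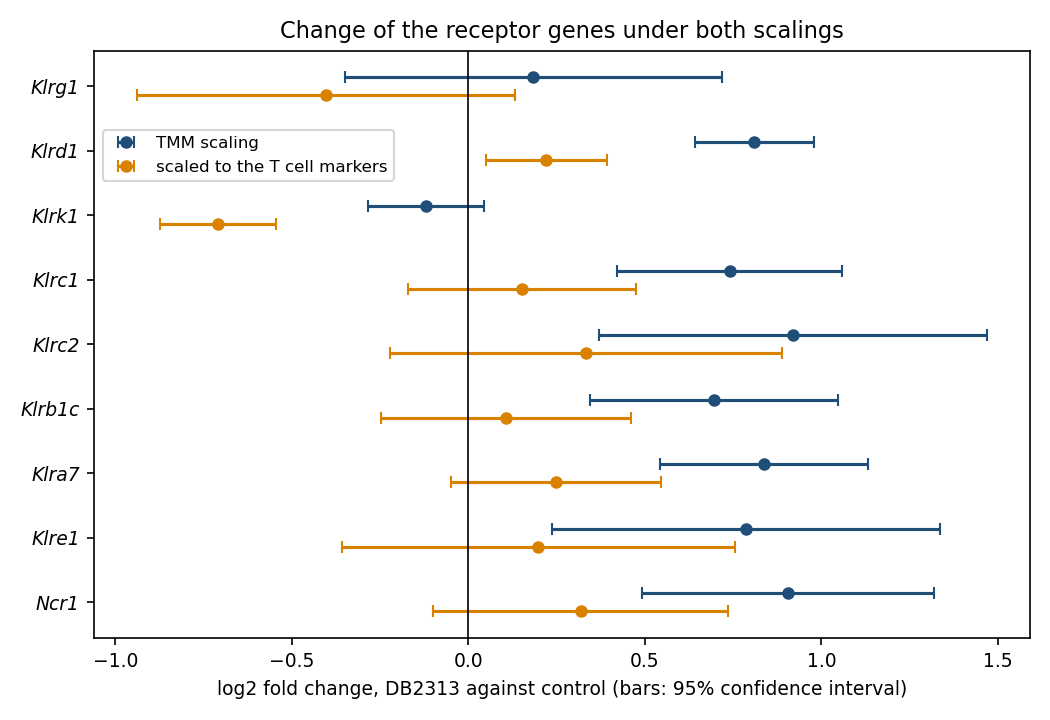
Log2 fold change (x axis) of each receptor gene between the DB2313 and control groups with its 95% confidence interval, after TMM scaling (blue) and after scaling to the counts of the 20 T cell markers (orange). The 7 genes between 0.70 and 0.92 in blue lie between 0.11 and 0.33 in orange, and Klrk1 goes from -0.12 to -0.71.

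Genes of other cell types moved between the groups in the same libraries. All 20 T cell markers were higher in the DB2313 group, by 0.32 to 0.74 on the log2 scale with a median of 0.59, and they took 0.305% to 0.309% of the counts in control and 0.491% to 0.494% in DB2313 libraries, with no marker at 0. With the summed counts of these markers as the scale, 1 receptor gene was higher, Klrd1, with a log2 fold change of 0.22 (standard error 0.082, adjusted p = 0.0183 in the same edgeR test). Klrk1 was lower, at -0.71 (standard error 0.080, adjusted p = 2.1e-08 in the same edgeR test). The other 6 genes that had been called were between 0.11 and 0.33 and did not pass. Klrg1 was at -0.40 (95% confidence interval -0.94 to 0.13). At this scaling 1.12% of the same 14883 genes were higher and 77.4% lower. Of the 20 T cell markers themselves, 3 were called higher and 5 lower at this scaling, so a call here is against their sum. Against this sum Klrd1 was slightly higher in the DB2313 group and Klrk1 lower. After TMM scaling Klrd1 was at 0.81, beside 0.32 to 0.74 for the markers, and a difference from the highest marker was not tested. For the remaining genes a difference from the summed markers was not detected at this depth.

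A list of 12 NK cell markers was set with earlier results of these data known, left out the receptor genes and held other Klr rows. Of its 9 tested markers, 3 were higher and 2 lower, beside 20.8% and 24.6% of all genes tested. Their median log2 fold change was 0.45. The whole list took 0.0104% to 0.0111% of the counts in control and 0.0125% to 0.0131% in DB2313 libraries. Eomes, a transcription factor of NK cells and memory CD8T cells, went from 12.1 ± 0.920 to 18.9 ± 1.04 CPM, and Txk, a kinase that T cells also express, from 49.6 ± 0.609 to 72.4 ± 1.17 CPM (SD, n = 3 each). Cma1, which mast cells also express and which is on the mast cell and basophil list as well, had the largest change of the list, -1.59 on the log2 scale (standard error 0.11). It had 469 to 511 counts in the control libraries and 144 to 200 in the DB2313 libraries, so its fall lowers the share of this list. Klra8 (Ly49H), a receptor of some NK cells, had 0 to 1 counts in the control libraries and 1 to 10 in the DB2313 libraries. It was not tested.

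Of 9 tested markers of gamma delta T cells, 7 were higher and none lower, beside 20.8% and 24.6% of all genes tested. The markers had a median log2 fold change of 0.73. They took 0.00582% to 0.00658% of the counts in control and 0.0109% to 0.0114% in DB2313 libraries, with no marker at 0. Trdc, the constant region of the delta chain, went from 14.8 ± 1.85 to 23.99 ± 1.67 CPM, and Tcrg-C2, of the gamma chain, from 14.4 ± 0.559 to 22.98 ± 0.677 CPM (SD, n = 3 each). The Tcrg constant genes resemble each other, so their division of reads is uncertain. The part of T cells, NK cells or gamma delta T cells in the change of the receptor genes was not tested.

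Of 23 tested macrophage markers, 20 were lower and 3 higher, with a median of -1.08, and they took 1.54% to 1.56% of the counts in the control libraries and 0.636% to 0.645% in the DB2313 libraries, with Vsig4 at 0. Neutrophil markers were lower in 8 of 9 and higher in 1 of 9, dendritic cell markers lower in 6 of 9 and higher in 2 of 9. Mast cell and basophil markers were higher in 4 of 11 and lower in 4 of 11, B cell markers higher in 5 of 9 and lower in 1 of 9, and CD4 T cell markers higher in 4 of 5 and lower in 1 of 5. Among all genes tested, 20.8% were higher and 24.6% lower. The part of these cell types in the result was not tested either.

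The table holds 22 other rows of the Klr family, of which 21 had at least 1 count and 14 were tested. Of the 14, 2 were higher, 3 lower and 9 did not pass the threshold, beside 20.8% higher and 24.6% lower among all genes tested. Klra2 (Ly49B), a receptor found on myeloid cells, was counted 483, 494 and 432 times in control and 125, 100 and 139 times in DB2313 libraries. It fell by 2.02 on the log2 scale (standard error 0.11, adjusted p = 1.15e-13 in the same edgeR test). Klra17 (Ly49Q), found on plasmacytoid dendritic cells and other myeloid cells, was counted 32, 28 and 28 times and 9, 8 and 8 times, a log2 fold change of -1.86 (standard error 0.37, adjusted p = 0.000231 in the same edgeR test). Klrb1b, an inhibitory relative of Klrb1c, showed a log2 fold change of -0.53 (standard error 0.16, adjusted p = 0.00867 in the same edgeR test), although its libraries overlapped between the groups. Without DB2313 replicate 1 the call of Klrb1b was lost, at -0.37 (adjusted p = 0.0648 in the same edgeR test). Both myeloid receptors thus moved against the 7 receptor genes that rose.

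The rows that rose were Klra1, from 2.83 ± 0.657 to 4.26 ± 0.642 CPM (SD, n = 3 each, log2 fold change 0.58, adjusted p = 0.0319 in the same edgeR test), and the pseudogene Klra13-ps, with a log2 fold change of 1.47 (standard error 0.34, adjusted p = 0.00112 in the same edgeR test). The call of Klra1 was lost with DESeq2 (adjusted p = 0.0981), and without control replicate 2 or 3 or DB2313 replicate 1 or 2 (adjusted p between 0.0621 and 0.133 in the same edgeR test). Not passing were Klrb1f at 0.15, Klra6 at 0.36, Klra9 at 0.45, Klri2 at 0.79, Klra3 at -0.22, Klrb1a at 0.56, Klra5 at 0.60, Klri1 at 0.39 and Klrg2 at -1.08 on the log2 scale. Of these, Klri2 passed as higher in 6 of the alternatives, library size and upper quartile scaling among them. Each of these 9 rows had 87 counts or fewer in a library. With scaling to the T cell markers, 1 of the 14 rows was higher, Klra13-ps at 0.88, and 5 were lower. Among the lower rows Klra2 was at -2.61 and Klra17 at -2.45 on the log2 scale, and Klra1 was at -0.0053 without a call. At this scaling 1.12% of all genes tested were higher and 77.4% lower. Along chromosome 6 the 20 tested Klr rows of the complex spanned 2638 kb, and rows that rose, fell or did not pass stood next to each other. After TMM scaling 8 of them were higher and 3 lower, beside 20.8% and 24.6% of all genes tested. The higher rows include receptor genes already described.

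**Figure D3:**
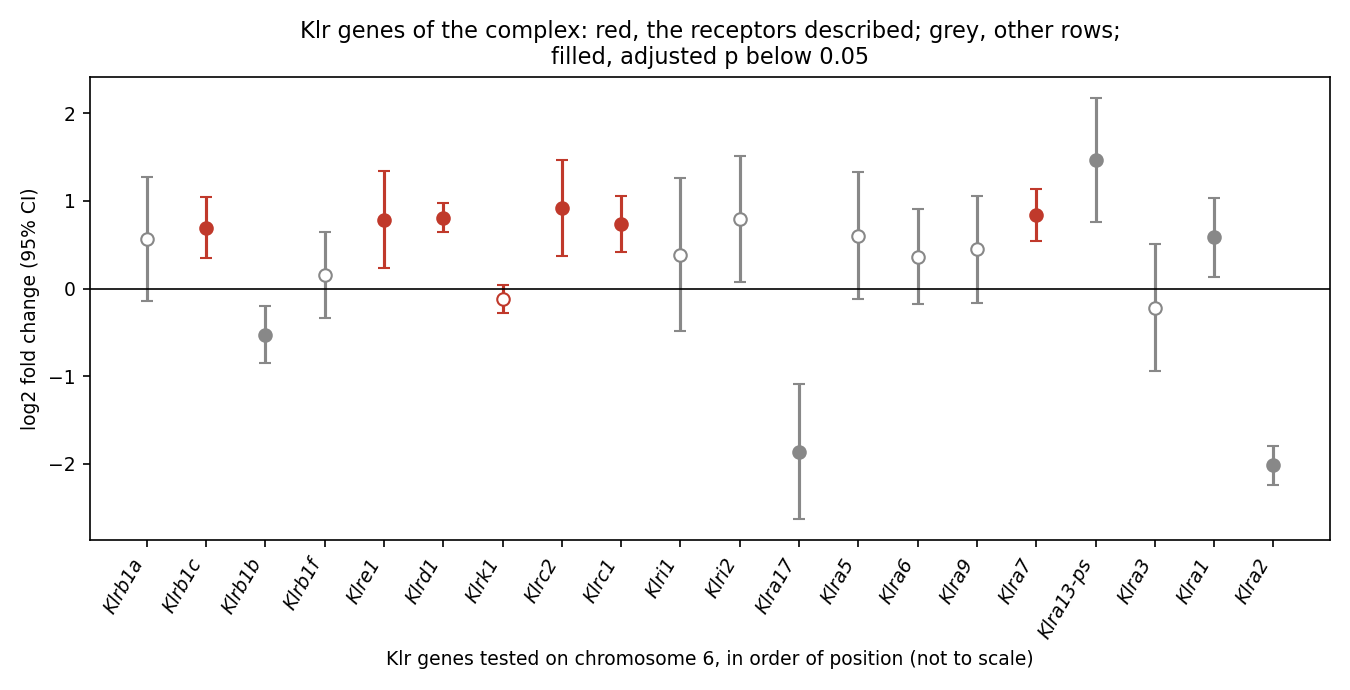
Log2 fold change (y axis, with 95% confidence intervals not adjusted for the number of genes) of the 20 tested Klr rows of the NK gene complex in their order along chromosome 6. Red marks the receptors described, grey the other rows, and filled symbols an adjusted p below 0.05; Klra2 at -2.02 and Klra17 at -1.86 lie farthest below 0.

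Of the 4 adaptors through which the activating receptors signal, 2 were lower and 2 higher, beside 24.6% and 20.8% of all genes tested. Tyrobp, the adaptor of Klrc2 and of many myeloid receptors, went from 447.2 ± 23.7 to 230.1 ± 13.97 CPM, a log2 fold change of -0.96, and Fcer1g, the adaptor of Klrb1c, Ncr1 and the Fc receptors, from 357.9 ± 6.98 to 234.7 ± 13.1 CPM, one of -0.61 (SD, n = 3 each). Cd247, the zeta chain of the T cell receptor, which Ncr1 also uses, went from 150.2 ± 1.65 to 247.3 ± 3.05 CPM, a log2 fold change of 0.72 (SD, n = 3 each). Hcst, the adaptor of Klrk1, went from 34.0 ± 1.64 to 39.2 ± 1.82 CPM, and its log2 fold change of 0.20 passed the threshold (adjusted p = 0.0171 in the same edgeR test) but not with DESeq2, without control replicate 3 or without DB2313 replicate 1. With scaling to the T cell markers Hcst turned to lower, at -0.39 (standard error 0.068), which made 3 adaptors lower and 1 higher. The higher one, Cd247, is itself among the T cell markers that set this scale. The part of macrophages in the lower values of Tyrobp and Fcer1g was not tested.

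Among 18 signalling genes, 8 were higher and 7 lower, beside 20.8% and 24.6% of all genes tested. The signalling genes had a median log2 fold change of -0.028. Sh2d1a (SAP), an adaptor of T and NK cells, had the largest change, 0.95 (standard error 0.089), and went from 13.3 ± 0.948 to 25.8 ± 0.810 CPM. The kinase Lck went from 338.8 ± 4.52 to 527.9 ± 15.2 CPM and the phosphatase Ptpn6, which inhibitory receptors recruit, from 340.2 ± 8.30 to 227.4 ± 6.94 CPM (SD, n = 3 each). Pik3cd, the most counted of the list, was at 499.6 ± 12.9 and 506.6 ± 6.95 CPM.

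Of 19 ligand genes in the table, 12 were tested, 3 of them higher and 4 lower, beside 20.8% and 24.6% of all genes tested. H2-K1, at 4906 ± 122 and 5615 ± 137 CPM, and H2-D1, at 4098 ± 124 and 4520 ± 134 CPM (SD, n = 3 each), encode classical MHC class I and had log2 fold changes of 0.19 and 0.14. H2-T23, the Qa-1 gene and ligand of the Klrd1 pairs, had one of 0.19 (standard error 0.030). B2m, their common light chain, went from 4490 ± 109 to 4198 ± 66.8 CPM, a log2 fold change of -0.097. The call of B2m was lost with library size scaling, at -0.0023, and with upper quartile scaling, at -0.033. With scaling to the T cell markers H2-K1, H2-D1 and H2-T23 turned to lower, at -0.39, -0.45 and -0.40. Cdh1 (E-cadherin), a ligand of Klrg1, went from 36.6 ± 0.835 to 23.9 ± 1.88 CPM, a log2 fold change of -0.62. Ulbp1, the ligand of Klrk1 with the most counts, had one of -0.29, whose call was lost without control replicate 1 (-0.19), and Clec2d, a ligand of Klrb1 receptors, one of -0.48. The names H2-T23, Ulbp1 and Clec2d were chosen after their values were seen.

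Of 13 cytotoxic effector genes, 6 were higher and 2 lower, beside 20.8% and 24.6% of all genes tested. Ccl5, a chemokine that macrophages make as well, went from 757.6 ± 17.9 to 306.4 ± 14.3 CPM, a log2 fold change of -1.31, while the proteoglycan Srgn was at 538.7 ± 8.79 and 532.3 ± 9.27 CPM and the cathepsin Ctsw went from 104.0 ± 5.27 to 149.1 ± 2.95 CPM (SD, n = 3 each). In the list of 12 transcription factors, 6 were higher and 4 lower, beside the same shares of all genes tested. Tcf7 went from 557.7 ± 18.5 to 819.6 ± 16.2 CPM and Ets1 from 530.0 ± 8.92 to 742.5 ± 13.1 CPM, while Id2 went from 347.3 ± 8.13 to 211.6 ± 0.701 CPM and Zeb2 from 77.1 ± 3.35 to 38.0 ± 1.18 CPM (SD, n = 3 each). In the list of other receptors that NK cells carry, 17 were tested. Of these, 7 were higher and 5 lower, beside the same shares of all genes tested. Il2rb, the shared chain of the IL-2 and IL-15 receptors, went from 394.0 ± 4.34 to 555.5 ± 19.2 CPM. The Fc receptor gene Fcgr3 went from 413.6 ± 11.2 to 254.7 ± 6.88 CPM, and Slamf7 from 136.1 ± 4.74 to 64.9 ± 0.327 CPM (SD, n = 3 each). The tested macrophage markers had a median log2 fold change of -1.08 in the same libraries. The part of macrophages in the lower values of Tyrobp, Fcer1g, Ccl5, Id2, Zeb2, Ptpn6, Fcgr3 and Slamf7 was not tested.

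**Figure D4:**
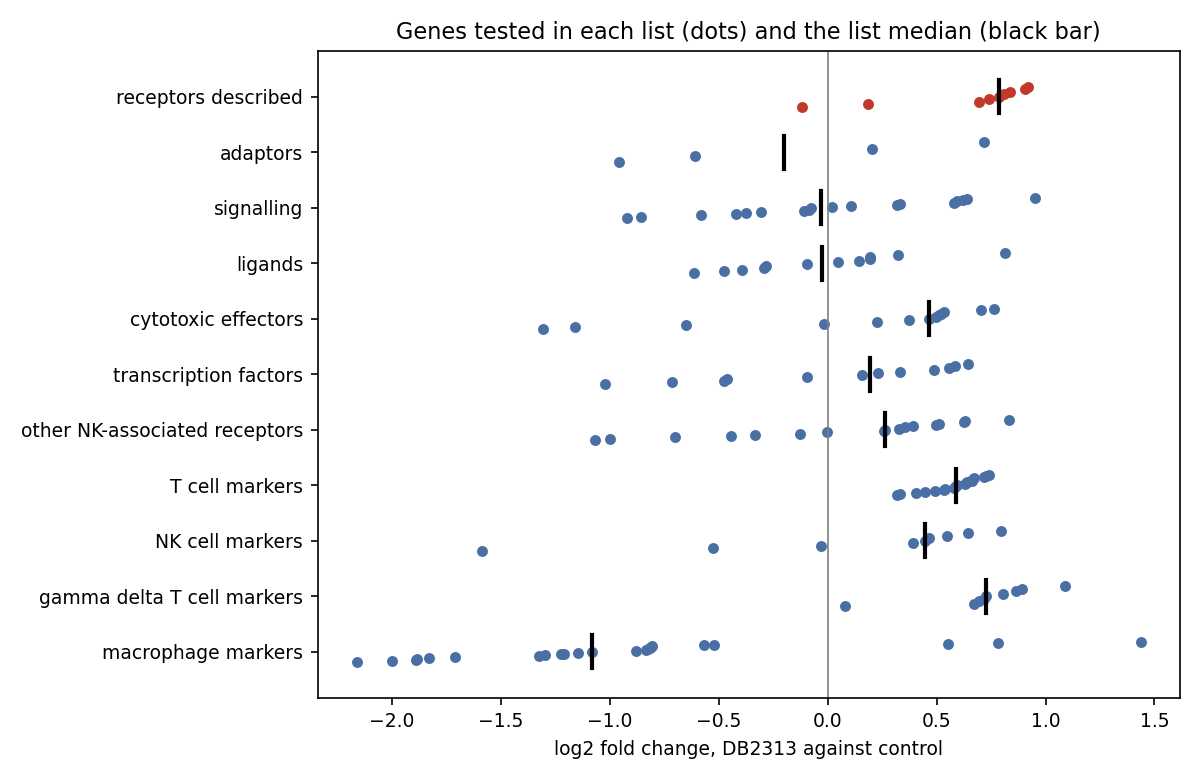
Log2 fold change (x axis) of each tested gene of the lists (dots, one row per list) with the list's median (black bar). The 9 receptor genes have a median of 0.79, the T cell markers one of 0.59, the gamma delta T cell markers one of 0.73 and the macrophage markers one of -1.08.

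The sequences before the start sites were compared because neighbouring genes of one complex had different changes. RefSeq promoters of GRCm38.p6 were found for 7 of the 9 receptor genes, in 11 rows since 4 genes have more than 1 start, and Klrd1 and Klrg1 had no entry. In the 250 bases before the start, both strands were searched for a Runx core (TGTGGT), a T-box core (AGGTGT) and an Ets core (GGAAGT), factors that work in cytotoxic lymphocytes. The Runx core was present before at least 1 start of 6 of the 7 genes and in 8 of the 11 rows, some of which overlap, against 14.05% of all 32851 rows and 15.9% of all genes with an entry. The T-box core was present in none of the 7 genes, against 13.6% of all genes with an entry, and the Ets core in 1, Klrb1c, against 22.2%. A match is a description of the letters and not a bound site. Klra7, which rose, had no Runx core, and Klrk1, which did not pass the threshold, had 1. The 4 sequences that follow show Klrk1 and its neighbour Klrc1, Klra7 without a core and Ncr1 of the other chromosome with 2, each from 5′ to 3′ on the strand of the gene and ending at the base before the start, with the Runx cores of either strand in capitals.
Klrk1, minus strand, chr6:129623865-129624114: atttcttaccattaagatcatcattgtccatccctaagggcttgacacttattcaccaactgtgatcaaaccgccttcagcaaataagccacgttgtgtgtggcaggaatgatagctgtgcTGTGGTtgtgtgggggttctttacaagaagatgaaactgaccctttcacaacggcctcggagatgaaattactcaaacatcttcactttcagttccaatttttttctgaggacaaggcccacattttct
Klrc1, minus strand, chr6:129678974-129679223: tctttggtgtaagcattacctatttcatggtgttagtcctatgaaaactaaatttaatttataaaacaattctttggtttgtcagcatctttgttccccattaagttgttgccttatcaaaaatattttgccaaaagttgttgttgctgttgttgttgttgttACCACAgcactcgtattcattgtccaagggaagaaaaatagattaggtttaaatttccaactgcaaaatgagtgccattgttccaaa
Klra7, minus strand, chr6:130233323-130233572: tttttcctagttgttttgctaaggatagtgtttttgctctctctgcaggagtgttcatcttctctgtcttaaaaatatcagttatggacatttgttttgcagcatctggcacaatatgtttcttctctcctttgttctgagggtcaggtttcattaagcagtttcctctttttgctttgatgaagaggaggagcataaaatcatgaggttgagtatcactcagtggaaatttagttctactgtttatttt
Ncr1, plus strand, chr7:4337465-4337714: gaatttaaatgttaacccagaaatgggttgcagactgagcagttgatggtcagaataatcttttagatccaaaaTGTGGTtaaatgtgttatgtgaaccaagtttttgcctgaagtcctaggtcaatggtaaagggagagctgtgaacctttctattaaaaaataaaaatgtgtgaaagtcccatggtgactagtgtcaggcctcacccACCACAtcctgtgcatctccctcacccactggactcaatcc

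By mean CPM over the 6 libraries Klrk1 was the most counted receptor gene, just above Klrd1. The protein-coding genes whose log2 CPM, centred on its own mean, differed least from that of Klrk1 over the 6 libraries were Mbnl2, Exoc5 and Ate1, with root mean square differences of 0.020, 0.022 and 0.024 among 12641 genes compared. The genes closest to Klrd1, added after its values were seen, were Lax1, Plac8 and Ly6c1, with differences of 0.029, 0.040 and 0.044. Of these, Lax1 went from 29.0 ± 2.44 to 49.3 ± 0.708 CPM and Ly6c1 from 71.4 ± 4.07 to 128.0 ± 4.10 CPM (SD, n = 3 each). With 2 groups of 3 libraries, this likeness rests mainly on the difference between the groups.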

How the data were processed

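RNA-seq was made from 3 control and 3 DB2313 libraries. The authors aligned the reads and deposited raw counts per gene, without normalization. The methods name LifeScope, whereas the submitters' processing notes list CASAVA 1.8, HISAT2 2.0.5 and featureCounts 1.5.0-p3; the build, annotation and strand setting are not given in the sources used here. Without a known strand setting, antisense reads cannot be told apart. Gene positions and lengths were those of the deposited table, and for all 9 receptor genes the positions were those of GENCODE mouse release 21 (GRCm38). Columns were matched to samples by label.

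The test was edgeR 4.0.16 in R 4.3.3 (glmQLFTest after filterByExpr, TMM and glmQLFit), with Benjamini-Hochberg adjustment over 14883 genes and a threshold of 0.05. Standard errors were derived from the log2 fold change and its F statistic. CPM were scaled by TMM, and likeness used log2(CPM + 0.5). Replicates differed by more than sampling noise (chi-square per gene 2.48 to 3.81 within groups, 46.9 to 50.5 between), so each counted as 1 sample. The fits were tested on simulated data. No molecular identifiers are named in the sources used here, so reads may not be independent molecules and floors describe counting error alone. Stretches of 50 bases were compared over GENCODE transcripts.

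The receptor genes and all lists were chosen with earlier results of these data known. The genes named are the receptor genes, all other tested Klr rows and the adaptors. From each other list they are the 3 genes with the highest mean CPM and the called gene with the largest change, printed where a result turns on them. Alternatives were DESeq2 1.42.0, library size, upper quartile and T cell marker scaling, 2 other filters, a fold threshold, a replicate block, each library left out, and summed subfamilies.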

Additional observations from a re-analysis of the deposited data

How the results depend on the processing

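Of 121 comparisons of the receptor genes' log2 fold changes under the alternatives, 108 had the same direction and call, 2 were reversed, 10 lost the call and 1 gained it. Scaling to the T cell markers accounted for 6 of the lost calls, the gained one (Klrk1, -0.71) and the reversal of Klrg1 (-0.40). The other reversal was the sum over all Klra rows in place of Klra7 (-0.54), and the other 4 lost calls were those of Klre1. Under library size and upper quartile scaling the same 7 receptor genes were called. Library size scaling moved the median of all tested genes from 0.019 to 0.11, and scaling to the T cell markers moved it to -0.57.

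The number of receptor genes called, 7 higher and 0 lower, was 1 higher and 1 lower with scaling to the T cell markers and 0 with a log2 fold change above 1. With each library left out it ranged from 6 to 7 higher and stayed at 0 lower. No sign of a pairing by replicate number was detected. Deviations of libraries with the same number correlated between -0.011 and 0.0025, and those with different numbers between -0.023 and 0.028. With so few libraries this check cannot exclude a pairing. A replicate block gave 7 receptor genes higher and 0 lower, and 2912 higher and 3525 lower genes in all.

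Over all genes, 3096 were higher and 3667 lower. Library size scaling gave 4931 and 2852, upper quartile scaling 4319 and 3102, scaling to the T cell markers 166 and 11523, a log2 fold change above 1 gave 204 and 789, and leaving out a library 2558 to 2894 and 3279 to 3516.

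Counts of list genes moved mostly under the same settings. With scaling to the T cell markers, the adaptors had 1 higher and 3 lower, Hcst turning from higher to lower. Some list genes are themselves T cell markers of this scale. They are Cd247 of the adaptors, Lck and Lat of the signalling genes and Bcl11b of the transcription factors. The ligands had 0 higher and 9 lower, signalling genes 1 and 13, cytotoxic effectors 0 and 6, transcription factors 0 and 9, and other NK-associated receptors 0 and 10. The T cell markers had 3 higher and 5 lower, CD4 T cell markers 0 and 3, mast cell and basophil markers 0 and 8, and B cell markers 1 and 3. The number higher was 0 for NK cell markers, 2 for gamma delta T cell markers, 1 for macrophage markers, 0 for dendritic cell markers and 0 for neutrophil markers.

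With a log2 fold change above 1, adaptors, ligands, signalling genes and CD4 T cell markers had 0 higher and 0 lower, and transcription factors, other NK-associated receptors and NK cell markers 0 and 1. Cytotoxic effectors, T cell markers and mast cell and basophil markers had 0 higher, gamma delta T cell markers 1 higher, macrophage markers 1 higher and 12 lower, dendritic cell markers 0 and 3, and B cell markers 1 and 0.

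With library size and upper quartile scaling, 6 and 5 ligands and 5 and 5 NK cell markers were higher, 3 ligands lower under each (the call of B2m was lost), and 0 B cell markers lower. DESeq2 gave 1 adaptor higher, 0 neutrophil markers higher and 0 B cell markers lower, and no filter and at least 10 counts in every sample gave 0 neutrophil markers higher. With each library left out, 1 to 2 adaptors and 0 to 1 neutrophil markers were higher, and 1 to 2 NK cell markers and 0 to 1 B cell markers lower. Without control replicate 3 or DB2313 replicate 1, 1 adaptor was higher. The NK cell markers had 1 lower without DB2313 replicate 1, with the call of Klrb1b lost, the neutrophil markers 0 higher when DB2313 replicate 1 or either of control replicates 1 and 2 was left out, and the B cell markers 0 lower without control replicate 1 or control replicate 2. Where no value is named, the cause was not tested.

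Klrc2, Klre1 and Klrg1 had 23 to 59 counts in a library, which limits the precision of their changes.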
